A study of Mus musculus with 3 samples.

Results

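The genes described here encode the receptors of the common gamma chain cytokines, namely Il2ra, Il2rb, Il2rg, Il4ra, Il7r, Il15ra and Il21r. They were taken by gene symbol, 7 of the 32285 genes in the count matrices, without use of their measured values. PBMCs, the mononuclear cells of blood, came from 3 groups of mice, namely young (8 weeks, no treatment by the labels), aged (16 months, no treatment) and aged-GA (16 months, given glycyrrhizic acid, the liquorice saponin called GA, for 1 month). All mice were C57BL/6 females by the methods, young mice were bought and aged mice were reared in the laboratory, so age and source cannot be told apart. GA was injected into the tail vein every other day and other mice received PBS by the methods. Each group gave 1 droplet library that counts the 3′ ends of RNA molecules with unique molecular identifiers (UMIs). Several mice per group were sampled by the study's description, and how their cells were combined in the library is not given in the sources used here.

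Each cytokine of this family binds a receptor that contains the common gamma chain, Il2rg, which brings the kinase Jak3 to the complex. Il2rb is shared by the IL-2 and IL-15 receptors, Il2ra and Il15ra raise their affinity, and Il4ra, Il7r and Il21r are the private chains for IL-4, IL-7 and IL-21. IL-7 is known for keeping naive T cells alive, IL-15 for keeping memory CD8 T and NK cells, IL-2 for regulatory T cells, and IL-4 and IL-21 for helping B cells. The receptors signal through Jak1 and Jak3 to factors of the Stat family.

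In mm10 (GRCm38; positions from GENCODE M21), 4 of the 7 genes lay as neighbours. Il2ra (chr2:11642807-11693193, + strand) and Il15ra (chr2:11705290-11734317, + strand) were separated by 12.1 kb. Il4ra (chr7:125552120-125579474, + strand) and Il21r (chr7:125603429-125633570, + strand) were separated by 24.0 kb, and no coding gene lay between the members of either pair. Il7r (chr15:9505788-9530176, − strand) and Il2rb (chr15:78479256-78495271, − strand) shared a chromosome at a distance, and Il2rg was on the X chromosome (chrX:101264378-101268255, − strand). The antisense gene Gm44876 overlapped an exon of Il4ra, and whether the counting used strand is not given in the sources used here, so reads of the 2 genes might not be told apart. The readthrough gene Gm20489 overlapped Il2rg but was not among the counted genes.

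Promoters are shown for Il7r, the member with the widest range between libraries over all kept cells, and for the neighbours Il4ra and Il21r, which were both higher in B cells of the aged library. The sequences are those of RefSeq on GRCm38.p6, from 250 bases before to 50 bases after the annotated start of transcription, 5′ to 3′, and capitals mark a match to the motif TTCNNNGAA.
Il7r, chr15:9529827-9530126, − strand: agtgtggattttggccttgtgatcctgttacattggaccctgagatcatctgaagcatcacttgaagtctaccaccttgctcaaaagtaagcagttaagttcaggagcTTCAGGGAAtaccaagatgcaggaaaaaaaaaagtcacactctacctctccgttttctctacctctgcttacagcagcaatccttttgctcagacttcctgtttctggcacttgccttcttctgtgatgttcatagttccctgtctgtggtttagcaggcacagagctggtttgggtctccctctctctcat
Il4ra, chr7:125552021-125552320, + strand: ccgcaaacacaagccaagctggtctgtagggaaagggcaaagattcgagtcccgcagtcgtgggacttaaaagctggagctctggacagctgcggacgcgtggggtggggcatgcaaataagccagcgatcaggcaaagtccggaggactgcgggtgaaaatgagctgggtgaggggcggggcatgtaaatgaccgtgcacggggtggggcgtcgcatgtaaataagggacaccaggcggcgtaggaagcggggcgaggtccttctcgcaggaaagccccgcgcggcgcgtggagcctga
Il21r, chr7:125603179-125603478, + strand: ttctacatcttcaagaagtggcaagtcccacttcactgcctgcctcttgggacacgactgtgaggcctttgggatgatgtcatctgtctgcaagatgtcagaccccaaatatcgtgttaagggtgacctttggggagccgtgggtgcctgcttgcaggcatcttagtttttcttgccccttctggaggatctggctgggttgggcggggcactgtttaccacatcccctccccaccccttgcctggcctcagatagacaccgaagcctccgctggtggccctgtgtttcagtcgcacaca

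The motifs searched, on both strands, were TTCNNNGAA, a palindromic form that Stat factors are known to bind, and the same motif with 1 more free base, a form that Stat6 is known to bind. Of the 6 members with a promoter in the RefSeq table, Il7r alone held a match. It was a TTCNNNGAA that began 142 bases before the RefSeq start. GENCODE places the Il7r start further upstream, at 9530176, so the printed stretch and its match lie within the gene as placed above. The Il4ra start also differed between the annotations, whereas that of Il21r did not. Of the 32851 promoters searched, 8.30% held the shorter and 6.95% the longer motif. A match describes these letters only.

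The libraries held 58894294 (young), 82260961 (aged) and 98155671 (aged-GA) UMIs in 10842, 16038 and 17332 barcodes. Here 8851, 10238 and 12648 cells passed the filters of the methods, with medians of 4671, 3811 and 4752 UMIs. The study itself gives other cell numbers for each group. Between 50 and 62 barcode sequences were shared by any 2 libraries. Cells were sorted into populations by marker genes that include no receptor of the family. Cells positive for both T and NK genes were kept as T cells with NK markers. These may include doublets of a T and an NK cell, which was not tested. Levels are CPM (counts per 1e6), the UMIs of a gene scaled by all UMIs of the same cells and not divided by gene length, so levels are not compared between genes. They are given with exact Poisson 95% intervals that cover counting error only. With 1 library per group no test was possible, and a difference between groups cannot be told apart from a difference between libraries. A ratio is a log2 ratio of CPM + 1 between libraries, with a counting interval for the ratio of CPM, and 1.5-fold in either direction is called past the fold. A level over all kept cells mixes the numbers of cells of each type with the levels within them, and the part of each was not tested.

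The gates were checked on genes they did not use. Ikzf2, Ctla4, Tnfrsf18, Tnfrsf4 and Capg, known from regulatory T cells, summed to 1766 (young), 3087 (aged) and 2509 (aged-GA) CPM in Foxp3-gated cells and to 575, 846 and 789 CPM in memory CD4 T cells. Cells in the memory CD8 gate had fewer memory UMIs in the young library. The gate took 60.3% of CD8 T cells there, against 85.4% (aged) and 84.9% (aged-GA), and S100a6, Lgals1, Ahnak and S100a10, known from memory T cells, summed to 805 CPM in young against 2836 and 2067 CPM. A gate that also asked for more memory than naive UMIs, chosen after these values were seen, took 14.4%, 60.1% and 60.5%. Its values are given where named as those of the stricter memory gate. Memory results without them are those of the first gate, and not all were repeated under the stricter one.

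UMIs of genes known from other cell types were found in gated cells. S100a8, S100a9 and G0s2 of neutrophils, all of which had UMIs, summed to 6.51 (young), 235 (aged) and 157 (aged-GA) CPM in B cells, and Cd3d, Cd3e, Cd3g and Trac to 18.1, 20.2 and 30.5 CPM. Barcodes of red cells with under 200 genes, a measure of free RNA, held Il7r at 34.4, 46.9 and 104 CPM of UMIs other than haemoglobin, Il2rb at 21.2, 39.1 and 71.2 CPM and Il2ra at 0 UMIs in each library. Levels of a member at or under these values are not read as expression, though they are not shown to be free RNA. Levels in gates are scaled by all UMIs, and the amount of free RNA in a gated cell was not measured.

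Il7r, the receptor chain for IL-7, was a gene of T cells. In naive CD4 T cells it stood at 1149 CPM in young (3728 UMIs in 681 cells), 694 CPM in aged (475 UMIs in 153 cells) and 689 CPM in aged-GA mice (679 UMIs in 190 cells). Naive CD8 T cells held 976, 587 and 802 CPM, the aged value from 37 cells. Memory CD8 T cells held 841, 573 and 725 CPM and memory CD4 T cells 962, 686 and 866 CPM. Thus the young library was highest in each of these 4 gates, and the aged library was lowest in 3 of them and level with aged-GA in naive CD4 T cells. Regulatory T cells, known for a low IL-7 receptor, held 718, 444 and 379 CPM, the aged-GA value from 45 cells, and the log2 ratio of regulatory over naive CD4 T cells was −0.68 in young (95% counting interval −0.88 to −0.48) and −0.65 in aged mice (−0.98 to −0.33). In NK cells Il7r was at 62.9, 46.7 and 23.3 CPM, above the level in red cell barcodes in young only, beside T cell markers (Cd3d, Cd3e, Cd3g and Trac) that summed to 36.6, 50.1 and 45.6 CPM. In B cells it was at 16.9, 9.02 and 12.05 CPM, under that level in each library. Basophils held 97.8 CPM in aged (25 UMIs in 104 cells) and 159 CPM in aged-GA mice (9 UMIs in 25 cells), beside T cell markers that summed to 19.6 and 52.9 CPM with Trac at 0.

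**Figure D1:**
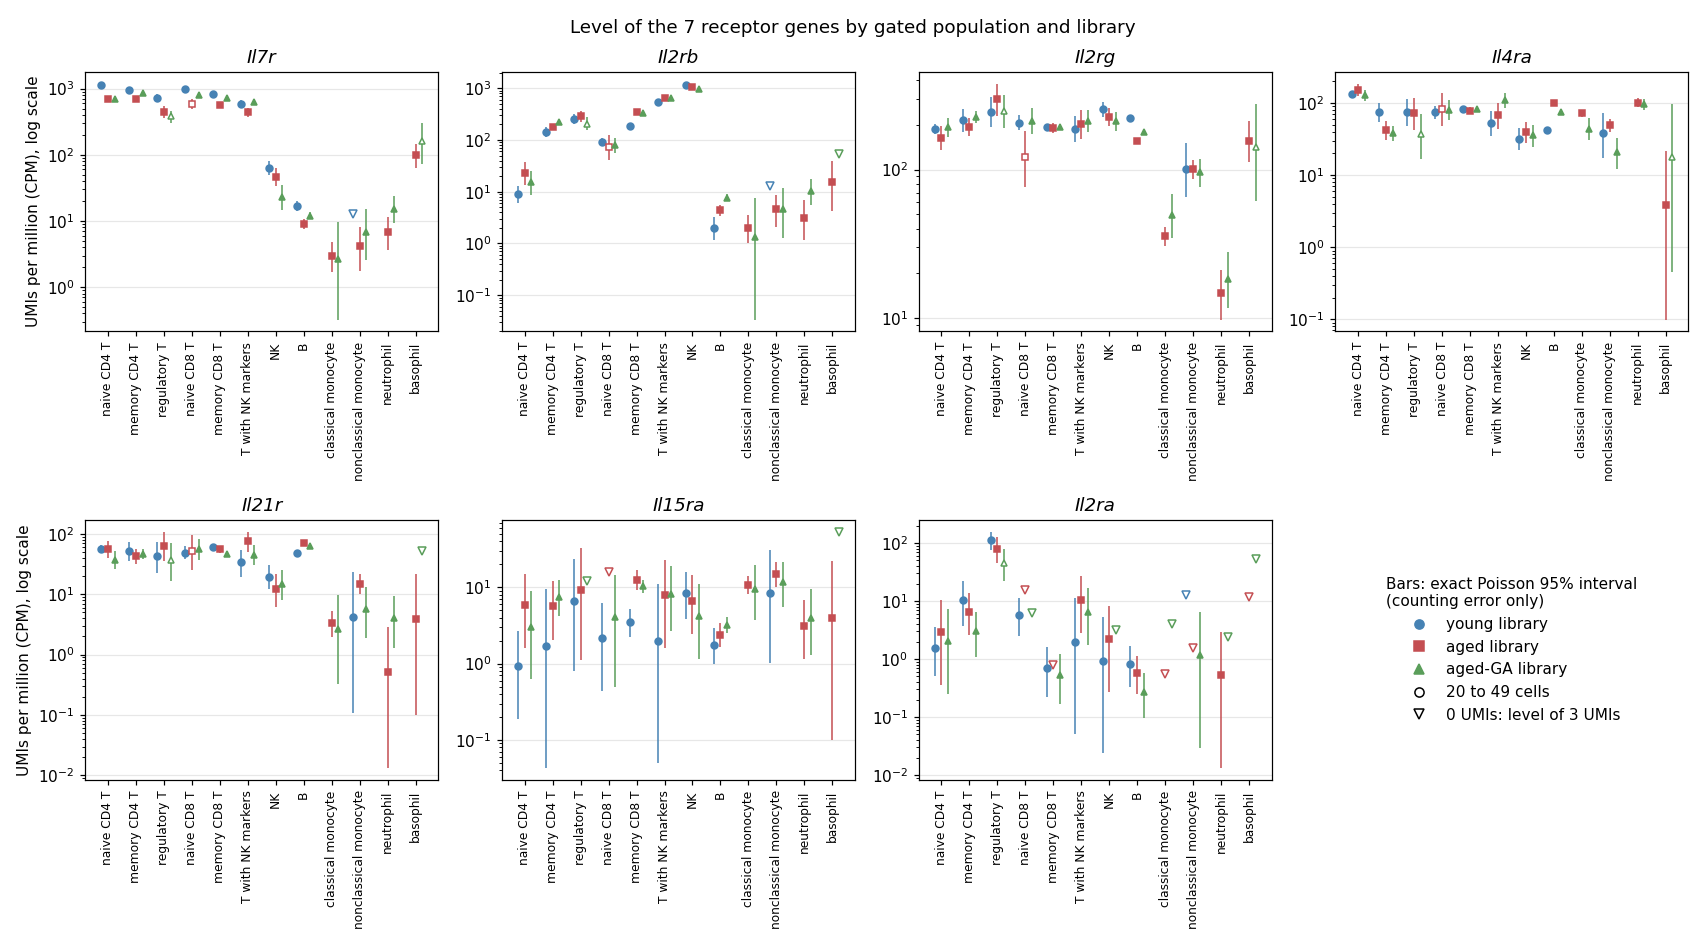
Level of each receptor gene (CPM, log axis) by gated population in the young, aged and aged-GA libraries; bars are exact Poisson 95% intervals, open symbols mark 20 to 49 cells, open triangles mark 0 UMIs at the level of 3 UMIs, and gates under 20 cells are left out. Il7r lay between 379 and 1149 CPM in T cell gates and at or under 62.9 CPM in NK, B and monocyte gates, Il2rb reached 1158 CPM in NK cells, and Il2ra was highest in regulatory T cells, at 44.8 to 111 CPM.

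Aged over young, Il7r was lower in all 5 T cell gates with at least 50 cells in both libraries. The log2 ratio was −0.73 in naive CD4 T cells (−0.87 to −0.59), −0.49 in memory CD4 (−0.65 to −0.33), −0.69 in regulatory (−1.06 to −0.34), −0.55 in memory CD8 (−0.63 to −0.48) and −0.42 in T cells with NK markers (−0.70 to −0.14). The difference passed the fold in naive CD4 and regulatory T cells only, and in naive CD4 T cells it shrank to −0.44 when the gates were set on counts thinned to 2000 UMIs per cell. In memory CD8 T cells it was −0.41 under the stricter memory gate. The median log2 ratio of all genes in these gates was above 0, as in memory CD8 T cells at 0.31, so Il7r lay on the other side of it. The share of naive CD4 T cells with an Il7r UMI after each cell was thinned to 1000 UMIs was 65.9% (449 of 681), 43.8% (67 of 153) and 41.1% (78 of 190), against 1.71%, 0.950% and 1.33% in B cells of median depths 3387, 3047 and 3738 UMIs and 0.217%, 0.256% and 0.682% in red cell barcodes. Thinning kept haemoglobin, which makes up over 50% of the UMIs of red cell barcodes. Their shares thus rest on fewer other UMIs than those of B or T cells. Unthinned shares of naive CD4 T cells, at medians of 4655, 4407 and 4932 UMIs, were 96.0%, 87.6% and 84.7%.

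Aged-GA over aged, Il7r was higher in the memory gates and not in naive CD4 T cells. The log2 ratio was 0.33 in memory CD4 (0.21 to 0.46), 0.34 in memory CD8 (0.27 to 0.41) and 0.50 in T cells with NK markers (0.24 to 0.77), all short of the fold, and −0.01 in naive CD4 T cells (−0.18 to 0.16). Under the stricter memory gate memory CD8 T cells held 725, 546 and 735 CPM. There, young and aged-GA intervals overlapped and the aged value lay below both. The aged library stands in both comparisons, so they are not independent of each other.

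Over all kept cells the differences in Il7r were larger, at 632, 159 and 273 CPM, a log2 ratio of −1.98 for aged over young and 0.77 for aged-GA over aged. All T cells, those outside the gates described above included, held 90.8% (young), 73.6% (aged) and 74.2% (aged-GA) of its UMIs. T cells that met no CD4, CD8 or Foxp3 gate alone held 39.2%, 22.1% and 19.5%. The numbers of gated T cells differed between libraries as well, with 681, 153 and 190 naive CD4 T cells among the kept cells. Over all kept cells 2 of the 7 members passed the fold aged over young, where 34.3% of all genes tested did, and 1 of 7 aged-GA over aged, where 10.4% of all genes did. The other member past it was Il15ra, higher in aged over young.

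**Figure D2:**
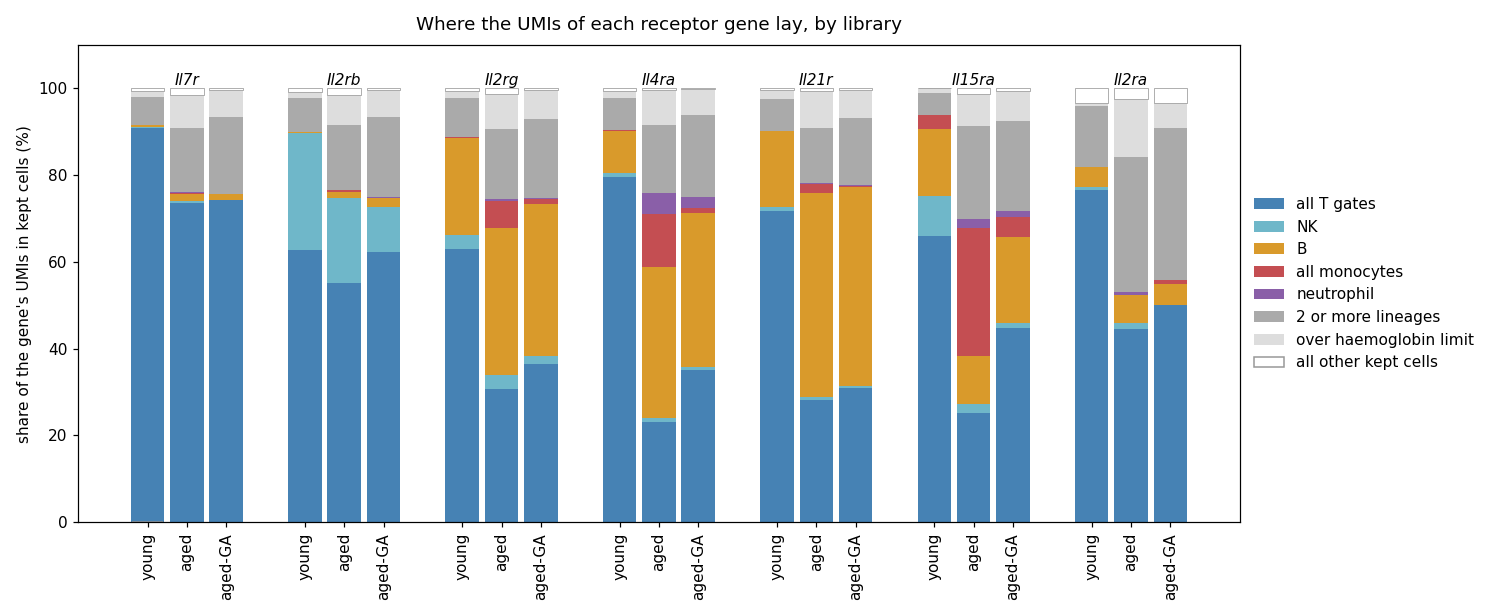
Share of the UMIs of each receptor gene (%) that lay in T, NK, B, monocyte and neutrophil gates, in cells positive for 2 or more lineages, in cells over the haemoglobin limit and in all other kept cells, by library. For Il4ra the share in T cells was 79.5% in young and 23.1% in aged mice, and the share in B cells 9.72% and 34.7%.

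Il2rb, the chain shared by IL-2 and IL-15, was highest in NK cells, then in T cells with NK markers, and lower in naive than in memory T cells. NK cells held 1158 (young), 1049 (aged) and 977 (aged-GA) CPM, T cells with NK markers 552, 637 and 635 CPM and regulatory T cells 255, 288 and 208 CPM. Naive CD8 T cells held 91.7, 73.4 (37 cells) and 79.2 CPM, and naive CD4 T cells 8.94, 23.4 and 15.2 CPM. The order of NK cells, T cells with NK markers and memory CD8 T cells was the same in each library, with intervals apart. Memory CD4 T cells lay above naive CD4 T cells by 3.84 (young), 2.88 (aged) and 3.76 (aged-GA) on the log2 scale, with no counting interval reaching 0, and naive CD8 above naive CD4 by 3.22 (young) and 2.31 (aged-GA). Naive CD4 values were at or under the level in red cell barcodes, so the size of these ratios is uncertain. B cells, at 2.01, 4.37 and 7.69 CPM, and monocytes and neutrophils, at 10.4 CPM or less, were under it too.

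In memory CD8 T cells Il2rb was at 184 CPM in young (1328 UMIs in 1056 cells), 345 CPM in aged (1324 UMIs in 646 cells) and 338 CPM in aged-GA mice (3255 UMIs in 1275 cells). The young library was lower than the other two, with a log2 ratio for aged over young of 0.90 (0.79 to 1.01). Under the stricter memory gate the 3 values were 339, 439 and 426 CPM and the log2 ratio was 0.38, short of the fold, while gates set on thinned counts gave 0.63. Aged-GA over aged, under the first gate, it was −0.03 (−0.12 to 0.07). In the 3 libraries 51.6%, 56.0% and 68.5% of memory CD8 T cells had UMIs of both Il7r and Il2rb, at medians of 6402, 6004 and 7525 UMIs a cell, whereas in NK cells the shares were 7.21%, 5.91% and 4.33%.

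**Figure D3:**
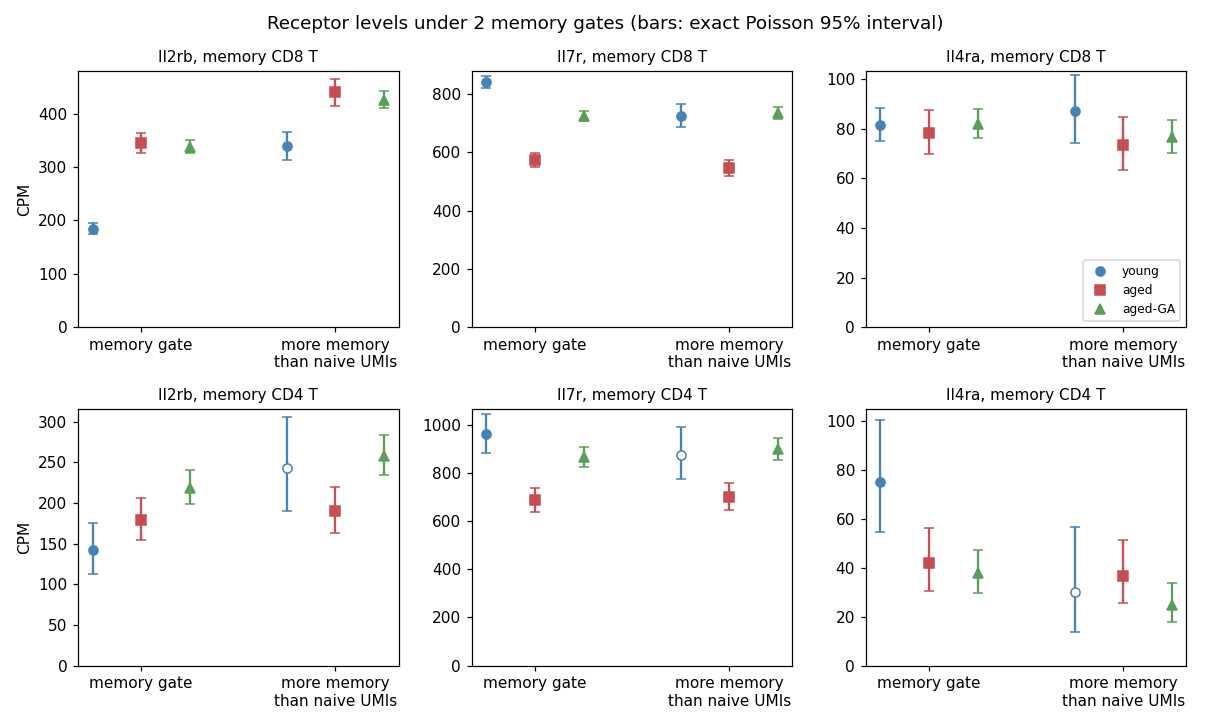
CPM of Il2rb, Il7r and Il4ra in memory CD8 and memory CD4 T cells of the 3 libraries under the memory gate and under the stricter gate with more memory than naive UMIs; bars are exact Poisson 95% intervals and the open symbol marks 47 cells. The young Il2rb value in memory CD8 T cells moved from 184 to 339 CPM between the gates, while Il7r stayed lowest in the aged library.

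Il2rg, the common chain itself, was even over the T and NK gates but not over myeloid gates. It lay between 121 and 297 CPM in every T and NK gate of each library. In memory CD8 T cells it was at 192, 190.3 and 194 CPM, and the log2 ratios were −0.02 (−0.15 to 0.11) and 0.03 (−0.10 to 0.15). Regulatory T cells held 245, 297 and 248 CPM, more than naive CD4 T cells by 0.37 (0.01 to 0.72) in young and 0.86 (0.40 to 1.31) in aged mice. Among myeloid cells it was graded, at 102, 100.2 and 95.7 CPM in nonclassical monocytes, at 35.4 (aged) and 49.4 (aged-GA) CPM in classical monocytes and at 14.7 and 18.4 CPM in neutrophils, the last near its level of 23.4 and 22.3 CPM in red cell barcodes. In aged mice the log2 ratio of classical over nonclassical monocytes was −1.47 (−1.80 to −1.21), and that of neutrophils over B cells −3.32 (−3.99 to −2.87). Basophils held 157 CPM (40 UMIs, aged) and 141 CPM (8 UMIs, aged-GA).

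In B cells Il2rg was at 222 (young), 155 (aged) and 179 (aged-GA) CPM. The libraries did not overlap in their counting intervals, the log2 ratios were −0.52 (−0.61 to −0.43) and 0.20 (0.13 to 0.28), and neither passed the fold. With CPM taken without haemoglobin, mitochondrial, ribosomal, immunoglobulin and receptor segment genes, the first was −0.58.

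Il4ra, the IL-4 receptor chain, differed between all 3 libraries in B cells. It was at 42.4 CPM in young (358 UMIs in 2231 cells), 100.2 CPM in aged (1377 UMIs in 3903 cells) and 75.3 CPM in aged-GA mice (1694 UMIs in 5183 cells). The aged value was highest, the aged-GA value lay between the other two, and the counting intervals did not overlap. Aged over young the log2 ratio was 1.22 (1.07 to 1.41), past the fold, and aged-GA over aged −0.41 (−0.52 to −0.31), short of it. After thinning to 1000 UMIs, 3.82%, 10.1% and 7.73% of B cells had an Il4ra UMI, against 0%, 0.0733% and 0.210% of red cell barcodes. The red cell shares again rest on fewer UMIs other than haemoglobin, so they are not a like measure of background. Over other filters, gates and scalings the aged over young ratio stayed between 1.07 and 1.24. Neutrophil RNA, which also carries Il4ra at 101 (aged) and 96.1 (aged-GA) CPM in neutrophils, moved with this result, as S100a8, S100a9 and G0s2 summed to 6.51, 235 and 157 CPM in B cells and to 220452 CPM in aged neutrophils. The monocyte list of 7 genes summed to 152, 236 and 233 CPM in B cells, with Cd300e and F13a1 at 0 in young, against 5548 CPM in aged classical monocytes, which held Il4ra at 71.7 CPM. The part of these cells' RNA in the Il4ra result was not tested.

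Among T cells Il4ra followed the naive CD4 state. Naive CD4 T cells held 135, 153 and 129 CPM and memory CD4 T cells 75.0, 42.1 and 37.9 CPM. Under the first gate the log2 ratio of memory over naive was −0.84 (−1.33 to −0.40) in young, −1.84 (−2.40 to −1.35) in aged and −1.74 (−2.20 to −1.34) in aged-GA mice. Between memory and naive CD8 T cells it was 0.14 (−0.16 to 0.46) in young and 0.01 (−0.44 to 0.51) in aged-GA mice. In memory CD4 T cells the aged over young ratio was −0.82 (−1.47 to −0.20), but under the stricter gate the levels were 30.0 (9 UMIs in 47 cells), 36.8 and 24.8 CPM, with overlapping intervals. NK cells held 31.9, 40.1 and 36.0 CPM.

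In myeloid cells Il4ra was at 101 and 96.1 CPM in neutrophils of the aged and aged-GA libraries, at 71.7 and 44.1 CPM in classical monocytes and at 38.1, 49.6 and 20.8 CPM in nonclassical monocytes of the 3 libraries. Aged-GA over aged the log2 ratio was −0.07 (−0.41 to 0.27) in neutrophils, −0.69 (−1.26 to −0.19) in classical and −1.22 (−2.07 to −0.52) in nonclassical monocytes. Both monocyte values passed the fold, on 33 and 18 UMIs in the aged-GA library, and the young library had 3 classical monocytes. Stricter lineage gates brought the classical value to −0.44, short of the fold. Basophils had 1 Il4ra UMI in each of the 2 libraries, while Il4, the ligand, was at 783 CPM (200 UMIs, aged) and 653 CPM (37 UMIs, aged-GA) in these cells.

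**Figure D4:**
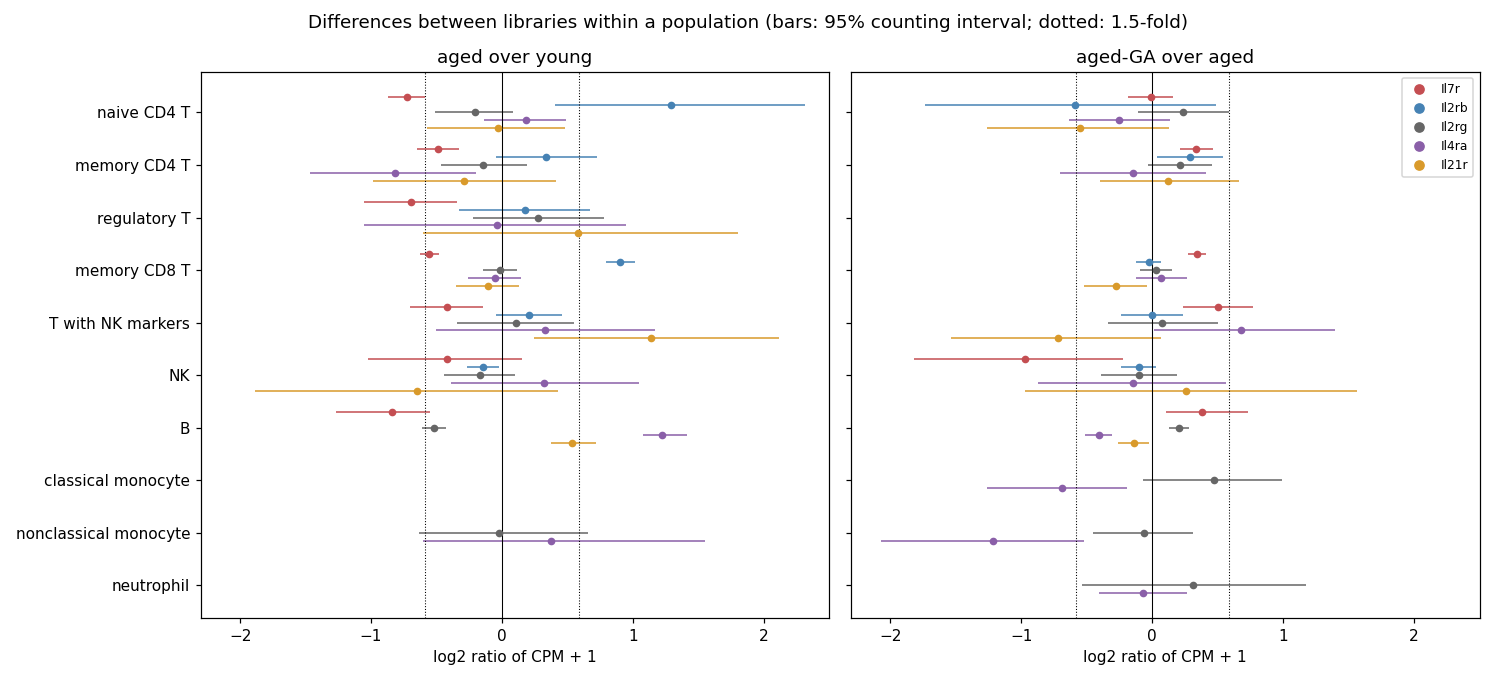
Log2 ratio of CPM + 1 between libraries within each population, aged over young and aged-GA over aged, for Il7r, Il2rb, Il2rg, Il4ra and Il21r where CPM was at least 8 in both libraries; bars are 95% counting intervals and dotted lines mark 1.5-fold. Il7r lies below 0 in all T cell gates aged over young, and Il4ra stands at 1.22 in B cells.

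Il21r, the IL-21 receptor chain, was found mainly in B and T cells and at lower levels elsewhere. B cells held 48.4, 70.6 and 63.9 CPM. Aged over young this was 0.54 (0.38 to 0.72), the same direction as its neighbour Il4ra but short of the fold, and it passed the fold at 0.61 when up to 20% mitochondrial UMIs were allowed and at 0.59 with stricter lineage gates. Memory CD8 T cells held 60.3, 56.0 and 46.1 CPM and naive CD4 T cells 56.7, 55.5 and 37.5 CPM. T cells with NK markers held 33.8, 75.4 and 45.4 CPM, where the aged over young ratio of 1.14 (0.25 to 2.12) rested on 17 and 29 UMIs. NK cells, at 19.7, 12.2 and 14.8 CPM, had log2 ratios over memory CD8 T cells of −1.56 (young; −2.32 to −0.98), −2.11 (aged; −3.22 to −1.32) and −1.57 (aged-GA; −2.52 to −0.87). Classical monocytes held 3.29 CPM and neutrophils 0.524 CPM (1 UMI) in aged mice. Nonclassical monocytes held 4.23, 15.0 and 5.77 CPM (1, 29 and 5 UMIs), the aged value near that of NK cells. Their log2 ratios of 1.61 and −1.24 passed the fold on these few UMIs.

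Il15ra, which presents IL-15 to neighbouring cells, was low in every population. Nonclassical monocytes held 8.47 (2 UMIs), 15.0 and 11.5 CPM and classical monocytes 10.8 (aged) and 9.34 (aged-GA) CPM. Red cell barcodes with under 200 genes held 0, 2.60 and 9.57 CPM (0, 3 and 9 UMIs). The aged-GA monocyte values were near that level, and their share of free RNA was not measured. In memory CD8 T cells it was at 3.47 CPM in young (25 UMIs), 12.5 CPM in aged (48 UMIs) and 10.3 CPM in aged-GA mice (99 UMIs), a log2 ratio of 1.59 for aged over young. Under the stricter memory gate these were 8.40, 17.1 and 12.5 CPM, a ratio of 0.95, still past the fold. The aged and aged-GA levels in memory CD8 T cells overlapped those of both kinds of monocyte in their intervals, under the first gate. After thinning to 1000 UMIs, 1 of 1056, 7 of 646 and 9 of 1275 memory CD8 T cells had a UMI (0.0947%, 1.08% and 0.706%), against 0%, 0.0183% and 0.105% of red cell barcodes, and unthinned shares were 2.08%, 6.66% and 7.06%. Here too haemoglobin takes up most of the thinned UMIs of red cell barcodes. Over all kept cells Il15ra was at 2.01, 5.54 and 4.80 CPM, and monocyte gates held 3.09%, 29.5% and 4.67% of its UMIs.

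Il2ra, the chain known as CD25, marked regulatory T cells. Foxp3-gated cells held 111 CPM in young (34 UMIs in 69 cells), 77.8 CPM in aged (17 UMIs in 50 cells) and 44.8 CPM in aged-GA mice (11 UMIs in 45 cells). The intervals, of 76.9 to 155, 45.3 to 124 and 22.4 to 80.2 CPM, overlapped from one library to the next, those of young and aged-GA included. Memory CD4 T cells held 10.2, 6.55 and 2.99 CPM, from 6 or 7 UMIs each, and regulatory T cells lay above them by 3.32 (young; 2.17 to 4.98) and 3.38 (aged; 2.23 to 5.08) on the log2 scale. Memory CD8 T cells had 5, 0 and 5 UMIs in all. After thinning to 1000 UMIs, 5 of 69, 4 of 50 and 2 of 45 regulatory T cells had an Il2ra UMI, and unthinned 22, 11 and 9 cells did, at medians of 3785, 3902 and 4489 UMIs. NK cells had 1, 2 and 0 Il2ra UMIs in all. Stricter lineage gates left 51, 33 and 29 regulatory T cells, at 109, 74.4 and 52.6 CPM. The Foxp3 gate held 22.8%, 13.5% and 9.17% of all Il2ra UMIs, and T cells that met no CD4, CD8 or Foxp3 gate held 34.2%, 19.8% and 24.2%. Cells positive for 2 or more lineages held 14.1%, 31.0% and 35.0%.

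RNA of all 3 chains of the IL-2 receptor was detected together in few single cells, and depth limits such detection. All 3 chains, Il2ra, Il2rb and Il2rg, had a UMI in 8 of 69 (11.6%; exact binomial interval 5.14% to 21.6%), 8 of 50 (16.0%; 7.17% to 29.1%) and 4 of 45 (8.89%; 2.48% to 21.2%) regulatory T cells, and in 3 of 1056, 0 of 646 and 3 of 1275 memory CD8 T cells. The pair Il2rb and Il2rg, which together bind IL-2 and IL-15, was seen in 49.8%, 49.2% and 49.6% of NK cells at medians of 3041, 3112 and 3390 UMIs. The pair Il4ra and Il2rg was seen in 8.11%, 11.8% and 13.7% of B cells, at medians of 3387, 3047 and 3738 UMIs. These shares were not thinned, and the Il4ra level in B cells was lower in aged-GA (75.3 CPM) than in aged mice (100.2 CPM).

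Only members with at least 20 UMIs over both libraries, in gates of at least 50 cells, were counted, so not all 7 entered each count. Past the fold aged over young were 2 of 5 members in naive CD4 T cells (32.6% of all genes), 1 of 5 in memory CD4 (33.5%), 1 of 6 in regulatory (45.7%), 2 of 6 in memory CD8 (30.4%), 1 of 5 in T cells with NK markers (31.8%), 1 of 5 in NK (24.6%), 3 of 6 in B (25.7%) and 2 of 4 in nonclassical monocytes (33.5%). Past it aged-GA over aged were 1 of 5 in naive CD4 (16.7%), 0 of 6 in memory CD4 (14.0%), 0 of 6 in memory CD8 (7.80%), 2 of 5 in T cells with NK markers (22.6%), 1 of 5 in NK (14.9%), 1 of 6 in B (3.24%), 1 of 4 in classical (19.8%) and 2 of 4 in nonclassical monocytes (13.9%) and 1 of 3 in neutrophils (15.3%). Several of these members lay under the level in red cell barcodes. They were Il2rb in naive CD4 T and in B cells in both comparisons, and Il7r in B cells aged over young. Aged-GA over aged, Il7r in NK cells (aged-GA) and neutrophils did so too. The 2 members in nonclassical monocytes aged over young, Il15ra and Il21r, rested on 2 and 1 UMIs in young. The median log2 ratio of the members was −0.03 in naive CD4 T, −0.04 in memory CD8 T and 0.41 in B cells aged over young, beside 0.21, 0.31 and 0.25 for all genes.

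The other genes of the pathway were described from a list of 23. Aged over young in B cells, 6 of 16 measured genes were past the fold upward and 2 downward, where 22.2% of all genes were upward and 3.54% downward. Il9r, the private chain for IL-9, went from 5.68 to 22.5 CPM (log2 1.81), Jak3 from 6.74 to 17.5 CPM (1.25), Stat5b from 17.6 to 31.1 CPM (0.78) and Stat6, the factor of IL-4 signaling, from 34.4 to 52.9 CPM (0.61). The other genes upward were Il15 and Socs2, at or under 2.18 CPM. Downward were Socs1 and Socs3, inhibitors of the pathway, at −0.69 and −0.67. Aged-GA over aged in B cells, Il9r stayed at 22.1 CPM, Jak3 stood at −0.49 and Socs3 at 0.89. The median of the pathway list in B cells was 0.53 aged over young, beside 0.25 for all genes.

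Upward and downward past the fold aged over young were 8 and 1 of 14 genes in naive CD4 T cells (24.9% and 7.62% of all genes), 4 and 3 of 16 in memory CD4 T (26.7% and 6.84%), 5 and 1 of 13 in regulatory T (36.1% and 9.60%), 4 and 0 of 15 in memory CD8 T (26.5% and 3.88%) and 2 and 1 of 13 in NK cells (16.1% and 8.50%). The upward counts in memory CD4 T, regulatory T, memory CD8 T and NK cells were near the share of all genes. Aged-GA over aged they were 1 and 0 of 13 in naive CD4 T (8.70% and 8.02%), 4 and 0 of 17 in memory CD4 T (6.33% and 7.71%) and 0 and 1 of 15 in memory CD8 T cells (2.89% and 4.91%). Jak3 was higher in the aged library in naive CD4 (7.09 to 19.0 CPM, log2 1.31), memory CD4 (6.82 to 33.7 CPM, 2.15) and memory CD8 T cells (10.1 to 16.9 CPM, 0.69). Its naive CD4 value rested on 23 and 13 UMIs, with a counting interval of 0.32 to 2.46. The memory CD4 value rested on 4 and 36 UMIs (0.82 to 4.26). The memory T values of the pathway genes are those of the first gate, and the stricter gate was not applied to them. Pim1, a kinase induced by Stat5, was past the fold upward in all 5 T cell gates, at 0.67, 0.90, 1.12, 0.86 and 0.78 in naive CD4, memory CD4, regulatory, memory CD8 and NK-marked T cells. Bcl2, a survival factor that IL-7 maintains, went from 369 to 767 CPM (1.06) in naive CD4 T cells while Il7r was lower there, and from 340 to 146 CPM (−1.21) in regulatory T cells. Cish, an inhibitor that Stat5 induces, was at 4.17 (young), 13.02 (aged) and 7.17 (aged-GA) CPM in memory CD8 T cells. Aged over young its log2 ratio was 1.44 there but −0.93 in naive CD4 T (21 and 2 UMIs), −0.90 in memory CD4 T (39.2 to 20.6 CPM) and −0.45 in regulatory T cells.

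Of the ligands, Il15 was in myeloid cells, at 22.5 CPM in classical monocytes and 59.3 CPM in neutrophils of the aged library and at 13.3 and 74.5 CPM of aged-GA. Il2 was at 18.8, 9.36 and 16.5 CPM in memory CD4 T cells. Il7, made by stromal cells, had 16 UMIs in all aged-GA cells. Crlf2, the chain that pairs with Il7r for thymic stromal lymphopoietin, was at 145 (aged) and 212 (aged-GA) CPM in basophils, 141 and 175 CPM in neutrophils, 124 and 108 CPM in classical and 139 and 120.0 CPM in nonclassical monocytes. Lymphoid cells held it too, at 123 (young), 93.5 (aged) and 119 (aged-GA) CPM in NK cells. B cells held 81.0, 82.5 and 94.1 CPM and memory CD8 T cells 37.6, 47.9 and 48.5 CPM.

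The genes whose levels followed each member most closely were named by Pearson correlation of log2(CPM + 10) over 30 points, the gates of at least 50 cells in 3 libraries, among 8444 genes. These points share libraries and cell types, so the values are a description. Il7r was closest to Lat (0.97), Tcf7 (0.97) and Bcl11b (0.96), genes of T cells. Il2rb was closest to Sla2 (0.95), Abcb1a (0.93) and Ctsw (0.93), and Il2ra to Areg (0.88), Ikzf4 (0.85), a gene known from regulatory T cells, and Slc22a5 (0.84). Il2rg was closest to Ncl (0.95), Il21r to Mdn1 (0.92), Il15ra to Frrs1 (0.80) and Il4ra to E030030I06Rik (0.71), with Ifit2 (0.70) and Rflnb (0.69) next.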

How the data were processed

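The authors deposited whole-number UMI counts per gene and barcode, 1 filtered matrix for each of 3 libraries. Their headers name Cell Ranger 5.0.0, and the submitters' processing notes name mm10. Counts were read in Python 3.11.15 (numpy 2.4.6, scipy 1.17.1, pandas 2.3.3, matplotlib 3.10.9). Following the methods, a barcode was kept if it had 200 or more genes, no more than 90% of the highest gene number, and mitochondrial UMIs up to 7.5%. No doublet caller was run. Cells positive for 2 or more lineages were set apart, except those positive for T and NK alone, kept as T cells with NK markers. A lineage needed at least 3 UMIs from at least 2 of its marker genes, and gated cells held at most 20% haemoglobin UMIs. UMIs were summed per library and population. Ratios used CPM + 1, at least 20 UMIs over both libraries and at least 50 cells. The named genes were the 7 members and, for each, the 3 genes of highest correlation, plus pathway genes. Members, gates and lists were chosen with earlier results of these data known. Scripts were tested on simulated data. In all, 10 alternatives were planned and 2 were added after seeing the data.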

Additional observations from a re-analysis of the deposited data

Results flagged for a closer look

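The Il4ra and Il7r results here were singled out because a gene moved past 1.5-fold in opposite directions in different populations under 1 contrast. None of these differences was tested, since each group has 1 library. Il4ra had a log2 ratio for aged over young of 1.22 in B cells and −0.82 in memory CD4 T cells. Under the stricter memory gate the young and aged memory CD4 intervals overlapped, with 47 cells in young. For aged-GA over aged the Il4ra ratio was 0.68 in T cells with NK markers, −0.69 in classical monocytes and −1.22 in nonclassical monocytes. Stricter lineage gates brought the classical value short of the fold. Il7r for aged-GA over aged was 1.05 in neutrophils, on 13 and 19 UMIs, and −0.97 in NK cells, on 42 and 22 UMIs. Gates on thinned counts turned the NK value to 0.16, and both aged-GA levels lay under that of Il7r in red cell barcodes. Il21r also moved both ways aged over young, at −0.65 in NK cells, 1.14 in T cells with NK markers and 1.61 in nonclassical monocytes. So did Il2rb aged-GA over aged, at −0.59 in naive CD4 T and 0.70 in B cells, both under the level in red cell barcodes. Il2ra was listed for UMIs in cells that met no lineage gate, outside the comparisons. It was at 20.7 CPM (5 UMIs) in young and 30.0 CPM (4 UMIs) in aged-GA mice.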

How the results depend on the processing

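Within populations, 8 ratios were higher and 5 lower past the fold of 42 aged over young, and 3 higher and 6 lower of 44 aged-GA over aged. Of all genes in these gates, 24.6% (NK) to 45.7% (regulatory T) passed the fold in the first comparison. Upward alone it was 16.1% (NK) to 36.1% (regulatory T). In the second comparison the range was 3.24% (B) to 22.6% (T with NK markers) in either direction. Shares of all genes are not given for the other settings named below. Over all kept cells 1 ratio was higher and 1 lower of 7 in the first comparison, and 1 higher and 0 lower of 7 in the second. Gates on counts thinned to 2000 UMIs gave 4 higher of 28 and 1 lower aged over young and 8 higher of 48 aged-GA over aged. They turned Il7r in NK cells aged-GA over aged from −0.97 to 0.16, and left 3 of 7 members highest in the same population. Il7r moved from naive CD8 to naive CD4 T cells and Il21r from B to naive CD8 T cells. From regulatory T cells, Il2ra moved to memory CD4 T and Il2rg to NK cells, as under stricter lineage gates. Regulatory T cells still held Il2ra under those stricter gates, at the levels given above, so its move is not read as a loss there. Whether the small regulatory gate was still ranked was not tested. With no minimum of UMIs there were 16 higher of 55 aged over young, and 8 higher and 11 lower of 62 aged-GA over aged. A pseudocount of 10 CPM gave 3 lower aged over young, 1 higher aged-GA over aged and 0 higher over all kept cells aged over young. CPM without haemoglobin, mitochondrial, ribosomal, immunoglobulin and receptor genes gave 8 lower aged over young, and 3 lower over all kept cells. Over all kept cells aged over young, 2 were lower with at least 500 genes and 2 with up to 20% mitochondrial UMIs. Stricter lineage gates gave 1 higher of 37 aged-GA over aged. The cause was not tested. No paired analysis was possible because each group has 1 library, and no library could be left out. Depth limits Il2ra and Il15ra most, and intervals cover counting error only.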
